A study of Mus musculus with 47 samples.

Results

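A set of 4 members of the B-lymphocyte gene programme, Pou2af1, Btk, Vpreb1 and Cd79b, were followed through 47 RNA-seq libraries of mouse T-cell precursors. They were taken by symbol from the table of deposited FPKM values (fragments counted per kilobase of transcript and scaled to library size), so that they are 4 of its 17754 genes, and each symbol had 1 row. Their Ensembl identifiers are ENSMUSG00000032053 (Pou2af1, chromosome 9), ENSMUSG00000031264 (Btk, chromosome X), ENSMUSG00000059305 (Vpreb1, chromosome 16) and ENSMUSG00000040592 (Cd79b, chromosome 11). All 4 rows passed the filter on low values in every comparison fitted.

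The study asked what the zinc-finger transcription factor Bcl11b, whose expression starts around T-lineage commitment, does to gene expression, by deleting floxed Bcl11b; 19 libraries are labelled knockout. Most cells were grown from fetal liver of E13.5 embryos on OP9-DL1 or OP9-DL4, stromal cell lines that present the Notch ligands Delta-like 1 (DL1) and Delta-like 4 (DL4), with Flt3 ligand and IL-7 at 5 ng/ml, reduced in some early cultures. The stages are DN2a, DN2b and DN3, successive steps of double-negative thymocytes that lack CD4 and CD8, and commitment falls between DN2a and DN2b. By protocol, floxed cells were sorted on a DN2a phenotype and Bcl11b-intact cells on a DN2b phenotype.

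The fetal liver knockout group held 14 libraries from floxed Bcl11b embryos (8 on DL1, 6 on DL4) and the control group 11 libraries from Bcl11b-intact C57BL/6 embryos (8 on DL1, 3 on DL4). Both were given a Cre retrovirus before differentiation, some carried the ROSA26R-YFP reporter, and IL-7 was reduced for 4 knockout and 3 control libraries. By title, 8 knockout libraries are DN2a, 5 DN2 and 1 DN2b, against 8 DN2b and 3 DN2 controls, so that sort gate and genotype largely cannot be told apart. Normal fetal liver cells without Cre virus gave 4 DN2a and 2 DN2b libraries, and cells of each stage given GSI, a gamma-secretase inhibitor that stops Notch signals, at 1 µM for the last 12 hours gave 2 libraries. Replicate 1 of DN2b, with and without GSI, is titled DN3. Sorted ex vivo thymic DN3 cells gave 3 control libraries: LckCre B6, CreERT2 with floxed but undeleted Bcl11b, and CreERT2. Thymic DN3 cells with the tamoxifen-inducible CreERT2 transgene, treated with 100 nM 4-OH tamoxifen and cultured on DL4, gave 2 control libraries (days 3 and 4) and 1 library with floxed Bcl11b (day 4). Conditions with 1 library each were a thymic DN2a knockout made in vivo with LckCre, a transgene driven in T cells, bone marrow CreERT2 cells with floxed or wild-type Bcl11b, and fetal liver cells that received an empty vector (control and knockout) or a Bcl11b vector (knockout) 36 hours before harvest.

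Bcl11b itself checked the labels. It ran from 8.77 to 37.9 FPKM (median 25.1) in the 14 fetal liver knockouts and from 16.9 to 84.4 FPKM (median 54.5) in the 11 controls, or -1.22 on the log2 scale (SE 0.21, limma adjusted p = 0.000127). Transcript therefore remained in libraries labelled knockout, and in the bone marrow pair it stood at 45.0 FPKM in the library labelled knockout and 44.9 FPKM in its control. The library labelled DL1 control replicate 1 had 16.9 FPKM, below the 23.6 FPKM of its date-matched knockout; in the other 8 of 9 date-matched pairs, described below, Bcl11b was lower in knockout. The knockout differences of the 4 genes are given with and without that control. Exon-level values were not analysed here. Per library, 11756 to 13370 genes reached 1 FPKM. T-precursor markers (Cd3e, Cd3g, Ptcra, Il2ra, Tcf7, Gata3 and Kit) summed to between 687 and 3428 FPKM per library. In these bulk samples, fewer cells of a type and less RNA per cell cannot be told apart.

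In a B cell the 4 genes act at different levels. Pou2af1 encodes OCA-B, a coactivator without its own DNA-binding specificity that docks on the octamer factors Pou2f1 and Pou2f2 at octamer DNA and is needed for germinal centres. Vpreb1 and Igll1 encode the components of the surrogate light chain that lets a pre-B cell display its newly made heavy chain, while Cd79a and Cd79b form the signalling pair beneath the B-cell receptor, and Btk is the Tec-family kinase that passes that signal on to phospholipase C gamma. Btk is also used by myeloid and mast cells.

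The promoter windows of the pair that was higher in knockout cells are shown because coactivator binding and the PU.1 factor are read at such sites. RefSeq (GRCm38.p6, whereas the expression table used mm9) gave windows for 3 of the 4 genes, from 250 bases before to 50 bases after the start, and none was found for Cd79b. Letters were searched on both strands: TGCAAAT (octamer core), TGACGT (cyclic AMP response element), GAGGAA (PU.1-type ETS core) and CAGGTG (E box). The Pou2af1 window, at chr9:51213440-51213739 on the plus strand, has the octamer core at base -231 and TGACGT at base -61, both in capitals below. These letters occur in 4.02% and 7.51% of all 32851 windows. The Btk window, at chrX:134583091-134583390 on the minus strand, holds neither; its capitals mark TTCCTC, the reverse complement of GAGGAA, at base 9 after the start, a match found in 28.28% of windows. Pou2af1 has GAGGAA too, at base 18. CAGGTG, present in 20.21% of windows, is in neither.
Pou2af1: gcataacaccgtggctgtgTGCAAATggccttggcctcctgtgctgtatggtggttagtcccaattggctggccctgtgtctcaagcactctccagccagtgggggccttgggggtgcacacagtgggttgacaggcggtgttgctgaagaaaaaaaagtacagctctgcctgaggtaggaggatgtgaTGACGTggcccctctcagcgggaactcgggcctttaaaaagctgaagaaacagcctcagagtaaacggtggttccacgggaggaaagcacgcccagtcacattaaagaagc
Btk: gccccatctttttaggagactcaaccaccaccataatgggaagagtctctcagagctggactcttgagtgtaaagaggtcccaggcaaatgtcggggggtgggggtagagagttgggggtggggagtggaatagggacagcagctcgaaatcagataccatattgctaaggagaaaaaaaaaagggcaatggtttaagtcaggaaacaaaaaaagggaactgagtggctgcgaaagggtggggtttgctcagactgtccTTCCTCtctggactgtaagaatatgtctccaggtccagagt

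Vpreb1 has a near-identical neighbour on chromosome 16, Vpreb2, and a stretch of both is shown so that the copies can be compared. A stretch of 156 bases shared by their RefSeq windows, at chr16:16869206-16869361 on the minus strand for Vpreb1 and chr16:17980315-17980470 on the plus strand for Vpreb2, differs at 3 bases, which are in capitals. Of these bases 106 lie before the annotated start of Vpreb1 and 50 from it on, and all 156 lie before that of Vpreb2. They are shown for the likeness of the copies, and their part in how reads are assigned was not tested.
Vpreb1: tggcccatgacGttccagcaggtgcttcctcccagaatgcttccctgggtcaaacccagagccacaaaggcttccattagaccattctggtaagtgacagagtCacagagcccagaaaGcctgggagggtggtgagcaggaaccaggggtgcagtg
Vpreb2: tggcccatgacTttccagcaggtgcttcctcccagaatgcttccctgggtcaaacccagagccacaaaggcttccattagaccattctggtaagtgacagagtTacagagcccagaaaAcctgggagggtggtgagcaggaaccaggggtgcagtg
The Vpreb1 window matched TGACGT at base -99, CAGGTG at base -88 and TTCCTC at base -81, with no overlap between them. The first-named transcripts of Vpreb1 and its paralog Vpreb2 in GENCODE M21 were identical at 739 of 759 aligned bases (97.4%), and 328 of the 731 windows of 36 bases in that of Vpreb1 (44.9%) also occur in that of Vpreb2. Reads from such windows could come from either gene, and how the authors assigned them is not given in the sources used here. Vpreb2 was listed between 0.1 and 1.10 FPKM over the 47 libraries. Top3b lies on the opposite strand and overlaps exons of another annotated Vpreb1 transcript but 0 of the 766 bases of the first-named one, and the libraries do not mark strand. For the other 3 genes no exon of another gene overlapped.

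The 4 genes had different orders across the groups. Btk was highest in normal DN2a cells, at 40.3 ± 8.88 FPKM (SD, n = 4), followed by DN2a cells with GSI at 35.9 ± 1.77 FPKM (n = 2), knockout cells on DL1 at 28.3 ± 4.90 FPKM (n = 8) and knockout cells on DL4 at 21.1 ± 4.28 FPKM (n = 6). It was lowest in thymic DN3 cells, at 3.99 ± 1.34 FPKM ex vivo (n = 3) and 2.18 ± 1.70 FPKM in culture (n = 2). Cd79b had another order, in which ex vivo DN3 cells led with 26.8 ± 8.32 FPKM. DN2b cells had 17.6 ± 4.24 FPKM (n = 2) and DN2a cells 13.6 ± 1.46 FPKM (n = 4). Knockout cells stood low, at 6.24 ± 1.09 FPKM on DL1 and 5.85 ± 1.30 FPKM on DL4, above only the marrow libraries at 5.53 and 5.10 FPKM.

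Pou2af1 was highest in libraries labelled knockout. The in vivo LckCre knockout had 20.5 FPKM and the cultured DN3 knockout 12.5 FPKM, ahead of knockout cells on DL4 at 8.67 ± 3.20 FPKM and on DL1 at 6.69 ± 4.69 FPKM. Normal DN2a cells had the least, 0.905 ± 0.854 FPKM, with 1 of 4 libraries at 0.1 FPKM, the lowest value the table holds. Vpreb1 was low throughout, at most 3.34 FPKM in every library but 1. The exception was the cultured DN3 knockout, at 10.6 FPKM, while ex vivo DN3 cells had 2.55 ± 1.01 FPKM and fetal liver controls on DL1 had 2.16 ± 0.54 FPKM. Wherever neighbours in these orders both held 2 or more libraries, their ranges overlapped.

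**Figure D1:**
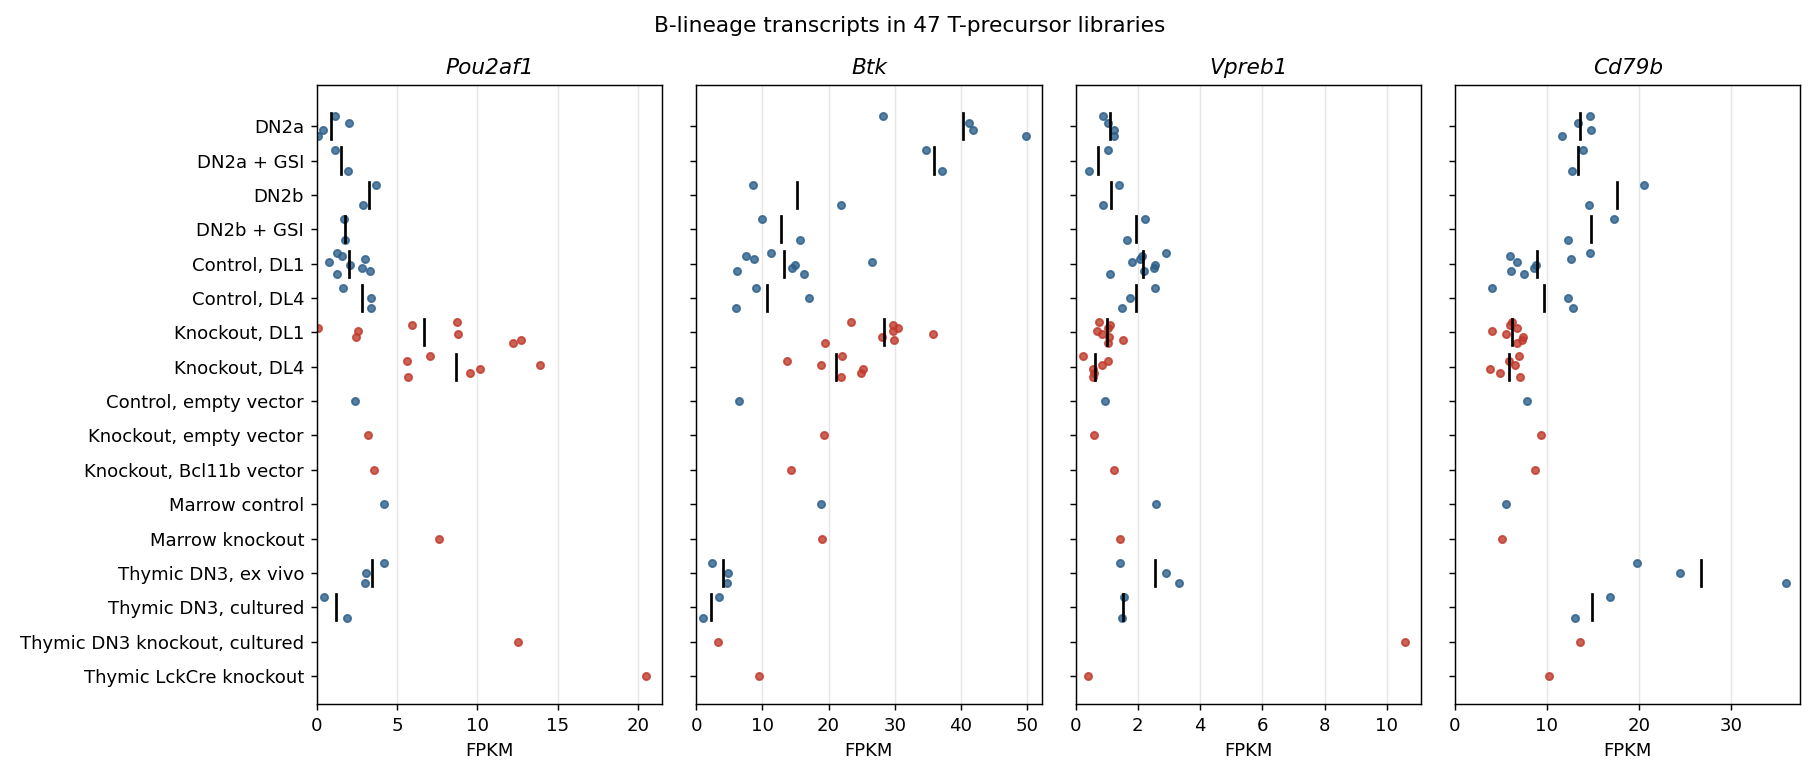
FPKM of each gene (x axis, linear) in each of the 47 libraries, by group (y axis); red points are libraries labelled knockout, blue points all others, and the black bar is the group mean. Btk is highest in DN2a cells (mean 40.3 FPKM), Cd79b in ex vivo thymic DN3 cells (26.8 FPKM) and Pou2af1 in libraries labelled knockout, and the Vpreb1 value of the cultured thymic DN3 knockout (10.6 FPKM) stands apart.

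Loss of Bcl11b in fetal liver cultures went with more Pou2af1 and Btk and with less Vpreb1 and Cd79b. Differences are on the log2(FPKM + 1) scale, which understates those of low genes, and come from limma models fitted to all 12678 genes tested, with stroma and IL-7 as covariates. A gene is called at a Benjamini-Hochberg adjusted p under 0.05. All 4 genes were called, where 16.9% of all tested genes were (9.8% higher, 7.1% lower); the set was assembled with that comparison known, so the count itself is no result. None of the 4 separated the groups without overlap, as 1.72% of tested genes did. The p-values measure the spread between these libraries, some of which are days of 1 culture.

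Pou2af1, the coactivator, ran from 0.1 to 13.9 FPKM with a median of 7.90 FPKM in the 14 knockouts, and from 0.738 to 3.40 FPKM with a median of 2.10 FPKM in the 11 controls. The groups overlapped through DL1 knockout replicates 3, 4 and 6, which had 0.1, 2.60 and 2.44 FPKM. The means were 7.54 ± 4.10 FPKM (SD, n = 14) and 2.23 ± 0.98 FPKM (SD, n = 11), which differ by 1.14 on the log2 scale (SE 0.31, limma adjusted p = 0.00968). It was higher in 8 of 9 pairs of libraries that share a title date, stroma and IL-7. The call was lost with a pseudocount of 0.1 (log2 difference 1.29, adjusted p = 0.0665) and with standard IL-7 only (0.97, adjusted p = 0.12).

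Culture day is given for some knockout libraries on DL1, and the Pou2af1 values by day were picked out after they were seen and not tested. Among cultures without a second vector, the 3 day-9 libraries held 0.1, 2.44 and 5.96 FPKM, the day-10 library 2.60 FPKM and the 3 day-12 libraries 8.79, 12.2 and 12.7 FPKM. The day-12 knockouts on DL1 that had also received a vector held less, 3.18 FPKM with the empty vector and 3.57 FPKM with Bcl11b, so that day 9 and day 12 overlapped over all dated DL1 knockouts. The culture sampled on 3 days gave 0.1, 2.60 and 8.79 FPKM on days 9, 10 and 12. The control culture of the same dates gave 0.738, 2.10 and 2.83 FPKM, and the other day-12 controls 3.35 and 1.28 FPKM, or 2.40 FPKM with the empty vector. On DL4, where days are given for 2 knockout libraries, day 8.5 had 5.70 FPKM and day 9 had 13.9 FPKM, above every DL1 value.

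Btk, the kinase, ran from 13.8 to 35.7 FPKM in knockout libraries (median 25.0) and from 5.98 to 26.5 FPKM in controls (median 11.3). The ranges overlapped, mainly through the day-9 control on DL1 at 26.5 FPKM, while the other controls stayed at or below 17.0 FPKM. The means of 25.2 ± 5.80 FPKM (SD, n = 14) and 12.6 ± 6.13 FPKM (SD, n = 11) differed by 1.09 on the log2 scale (SE 0.18, limma adjusted p = 4.99e-05). It was higher in 9 of 9 date pairs. Within the earliest, middle and latest years named in the titles the difference was 1.06, 1.03 and 1.06; only the latest year passed the threshold on its own.

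Vpreb1, the surrogate light chain gene, was the gene of the set whose groups came closest to separating. Knockout libraries ran from 0.229 to 1.53 FPKM (median 0.839) and controls from 1.10 to 2.90 FPKM (median 2.14). Only DL1 knockout replicate 7, at 1.53 FPKM, and replicate 2, at 1.12 FPKM, reached into the control range, in which DL1 control replicate 8 was lowest at 1.10 FPKM. The means were 0.848 ± 0.324 FPKM (SD, n = 14) and 2.10 ± 0.53 FPKM (SD, n = 11), which differ by -0.71 on the log2 scale (SE 0.11, limma adjusted p = 1.87e-05), and all 9 date pairs showed less in knockout. Among untreated cells without Cre virus, DN2a (0.881 to 1.25 FPKM) and DN2b (1.40 and 0.885 FPKM) lay within the knockout range. So did the control with empty vector, at 0.934 FPKM, while GSI-treated DN2b cells lay above it at 2.22 and 1.65 FPKM. The lower value thus holds against these 11 controls. These levels are near the 1 FPKM used as the filter, and DL4 knockout replicates 4 and 6 carry the same value, 0.548 FPKM. Top3b, on the opposite strand, was 52.6 ± 10.2 FPKM in knockout and 63.4 ± 10.6 FPKM in control, -0.23 on the log2 scale, which was not called (limma adjusted p = 0.0858); its part in the Vpreb1 value was not tested.

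Cd79b, the receptor's signalling chain, differed least. Knockout libraries ran from 3.76 to 7.43 FPKM (median 6.37) and controls from 4.07 to 14.7 FPKM (median 8.63). The 14 knockouts lay close together, whereas the libraries labelled DL1 control replicates 1 and 3 had 14.7 and 12.6 FPKM and DL4 control replicates 2 and 3 had 12.3 and 12.8 FPKM. Several controls lay within the knockout range. They were the lowest, DL4 control replicate 1 with reduced IL-7, and DL1 control replicates 2, 7 and 4 at 6.02, 6.15 and 6.79 FPKM. The means of 6.07 ± 1.16 FPKM (SD, n = 14) and 9.13 ± 3.46 FPKM (SD, n = 11) differed by -0.46 on the log2 scale (SE 0.16, limma adjusted p = 0.0481), and 7 of 9 date pairs showed less in knockout. The call is marginal: it was lost on leaving out any of 16 of the 25 libraries (largest adjusted p = 0.13) and with date pairs as a block (adjusted p = 0.162). Within the earliest, middle and latest years the difference was -0.0005 (SE 0.41), -1.03 and -0.36. The 3 controls of the earliest year were spread widely, at 4.07, 6.02 and 14.7 FPKM, and its 2 date pairs differed by -1.13 and 0.44, so the value near 0 does not show that a difference was absent. Without the library labelled DL1 control replicate 1, which also held the most Vpreb1 of the controls, Cd79b differed by -0.37 (limma adjusted p = 0.08) and was not called. Pou2af1 (1.12, limma adjusted p = 0.015), Btk (1.10, 8.65e-05) and Vpreb1 (-0.68, 4.49e-05) kept their calls without it.

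**Figure D2:**
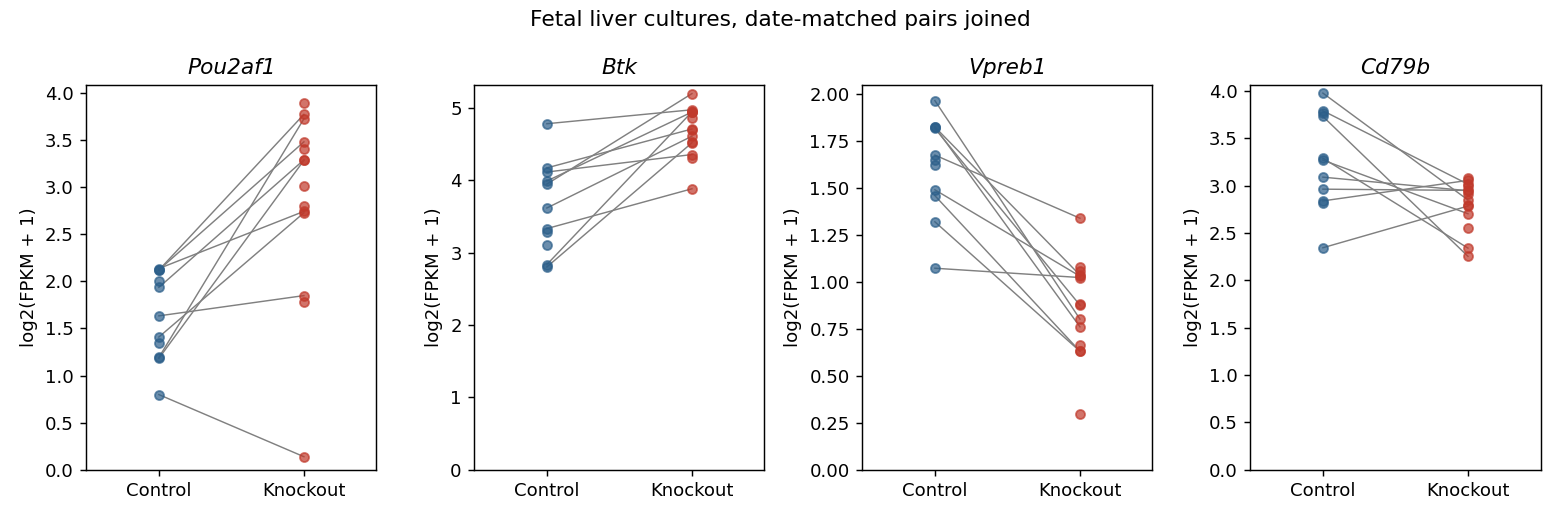
log2(FPKM + 1) of each gene in the 11 control and 14 knockout fetal liver libraries; each point is 1 library and lines join the 9 date-matched pairs. Every line rises for Btk and falls for Vpreb1, 8 of 9 rise for Pou2af1, and 7 of 9 fall for Cd79b.

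The sort gate could be matched in part, a comparison added after the data were seen. Of the 9 date pairs, 4 carry the same stage in both titles (DN2 or DN2b), from 2 pairs of cultures. In these pairs Btk was higher in 4 of 4, with differences of 0.193 to 2.11 and, in a fit without pairing, a log2 difference of 1.13 (SE 0.33). Vpreb1 was lower in 4 of 4, by a log2 difference of -0.70 (SE 0.20), Pou2af1 was higher in 3 of 4 with 0.64 (SE 0.66), and Cd79b was lower in 3 of 4 with -0.33 (SE 0.21). None of the 4 genes passed the threshold in these 8 libraries (limma adjusted p = 0.845 for Pou2af1, 0.133 for Btk, 0.117 for Vpreb1 and 0.695 for Cd79b). The fit had genotype as its only term, so its SEs and p-values ignore the pairing, and some pairs are days of 1 culture.

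Neither stroma nor IL-7 changed the knockout difference detectably. The knockout by stroma term called 0 of 14271 genes in limma (338 had an unadjusted p under 0.05), and for the 4 genes it lay between -0.22 for Vpreb1 and 0.32 for Pou2af1. The knockout by IL-7 term called 100 genes (0.701%) and none of the 4; its largest values were 0.60 for Pou2af1 (95% interval -0.81 to 2.01) and -0.43 for Vpreb1 (-0.89 to 0.02). The Pou2af1 interval takes in values as large as the knockout difference of 1.14, so equal effects are not shown.

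The defining genes of B cells that have values here were low throughout. Ebf1, Cd79a and Cd22 stayed below 1 FPKM in all 47 libraries, and Igll1, the partner of Vpreb1, reached at most 1.73 FPKM. In fetal liver Igll1 averaged 0.523 ± 0.324 FPKM in knockout (0.146 to 1.25 FPKM) and 1.17 ± 0.38 FPKM in control (0.378 to 1.73 FPKM). Its mean was thus lower in knockout, as that of Vpreb1 was. Cd79a, the partner without which Cd79b cannot reach the B-cell surface as a receptor, ran from 0.201 to 0.915 FPKM in knockout and from 0.247 to 0.598 FPKM in control. Pax5, Ms4a1, Vpreb3, Blnk and Syk were not analysed here. The B-cell markers Ebf1, Cd79a, Cd22 and Igll1, the 4 of 7 used here that have values, summed to 1.18 to 2.34 FPKM in knockout and 1.68 to 2.84 FPKM in control, and none of them passed the filter for testing.

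**Figure D3:**
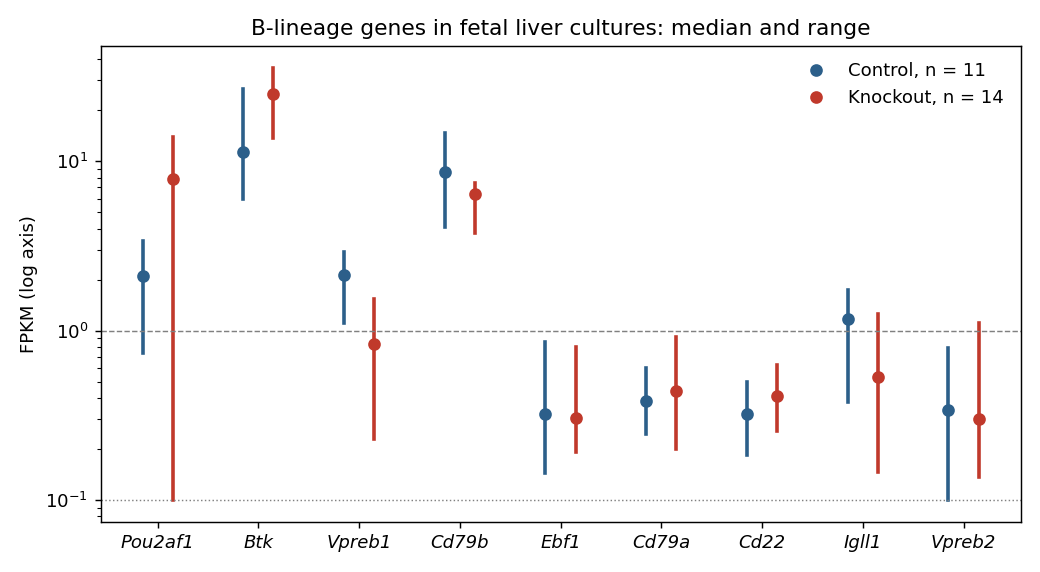
FPKM (log axis) of the 4 genes and 5 further B-lineage genes in fetal liver control (blue, n = 11) and knockout (red, n = 14) libraries; points are medians and bars the full range, the dashed line is 1 FPKM and the dotted line the lowest value of the table, 0.1 FPKM. Pou2af1, Btk and Cd79b have medians above 1 FPKM in both groups, while Ebf1, Cd79a and Cd22 stay below it in every library.

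Other marker lists moved with the knockout, and their part in the 4 genes' differences was not tested. Innate lymphoid and NK markers (6 of 6 in the table) summed to 551 to 1157 FPKM in knockout against 39.2 to 255 FPKM in control, and all 6 were called higher. Mast and megakaryocyte markers (5 of 6 in the table) summed to 263 to 923 FPKM against 77.5 to 339 FPKM, with 4 of 4 tested called higher, among them Cpa3 and Gata2; Pf4 was below 1 FPKM in every library. Myeloid markers (7 of 8) summed to 6.03 to 45.7 FPKM against 5.45 to 24.3 FPKM, with 0 of 3 tested called and Elane and Csf3r below 1 FPKM in every library. Plasmacytoid dendritic markers (5 of 6) summed to 177 to 332 FPKM against 186 to 371 FPKM, with Irf8 called higher, and OP9 stroma markers to 5.68 to 69.6 FPKM against 8.20 to 65.6 FPKM with 0 of 5 called. T-precursor markers summed to 754 to 1735 FPKM against 1652 to 2878 FPKM, with 2 called higher and 3 lower of 7.

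Among other B-identity genes, 8 of the 19 listed were tested; 2 were called higher, 2 lower, and their median log2 difference was -0.12 against 0.04 for all tested genes. Cd72, an inhibitory surface receptor of B cells, rose from 11.1 ± 7.47 to 41.2 ± 11.3 FPKM (log2 difference 2.15, limma adjusted p = 2.54e-06), and Bank1, a B-cell scaffold for Lyn, rose from 0.514 ± 0.199 to 2.46 ± 0.75 FPKM (1.15, limma adjusted p = 6.62e-08). Ighm, the immunoglobulin mu heavy chain locus, fell from 55.1 ± 20.7 to 32.8 ± 15.4 FPKM (-0.74, limma adjusted p = 0.0314), and Cd24a, a surface protein of immature lymphocytes, fell by 0.48 on the log2 scale (limma adjusted p = 0.0109).

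Around Btk, 11 of the 14 listed genes of B-receptor signalling were tested and 4 were called higher and 1 lower, with a median log2 difference of 0.21. The higher ones were Lyn, the Src-family kinase that phosphorylates the receptor chains (1.09, limma adjusted p = 8.83e-08), Plcg2, the phospholipase that Btk activates (0.86, 5.51e-06), and the inhibitory phosphatases Inpp5d (0.58) and Ptpn6 (0.34). Prkcb, the protein kinase C that acts downstream of the phospholipase, fell from 20.8 ± 11.9 to 8.08 ± 3.80 FPKM (-1.26, limma adjusted p = 0.016). Of the Tec-family kinases, Txk rose from 16.8 ± 4.28 to 43.9 ± 12.5 FPKM (1.27, limma adjusted p = 1.33e-06), whereas Tec (0.09) was not called.

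The DNA-binding partners of the Pou2af1 product were not called: Pou2f1 averaged 5.55 ± 1.66 FPKM in knockout and 6.38 ± 3.00 FPKM in control (log2 difference -0.11, SE 0.19), and Pou2f2 2.05 ± 0.99 and 1.61 ± 0.49 FPKM (0.18, SE 0.15). Of the 6 tested octamer and ETS partners, 2 were called higher and 2 lower, with a median of 0.04 that equals that of all tested genes. Sfpi1, which encodes PU.1, rose from 11.2 ± 4.45 to 21.7 ± 6.63 FPKM (0.97, limma adjusted p = 0.000622) and Irf8 rose by 0.66. Spib, a PU.1 relative, fell from 7.07 ± 2.68 to 1.70 ± 0.87 FPKM (-1.63, limma adjusted p = 6.92e-07) and Ets1 fell by 0.92 on the log2 scale.

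Btk was higher in normal DN2a than in normal DN2b cells. The 4 DN2a libraries held 28.3, 41.2, 41.9 and 49.7 FPKM and the 2 DN2b libraries 8.57 and 21.9 FPKM. Btk was the only gene of the 4 called, higher in DN2a by 1.45 (SE 0.37, limma adjusted p = 0.043), where 4.23% of the 13364 tested genes were called higher and 9.23% lower. The call is fragile: the value ran from 0.82 to 2.08 on leaving out 1 library, and the call was lost without DN2b replicate 1 or any of DN2a replicates 2, 3 and 4. Plcg2 (1.85) and Sfpi1 (1.86), added after values were seen, were called higher in DN2a as well (limma adjusted p = 0.0101 and 0.0116). Their lists did not move as a whole. Of the 11 tested B-receptor signalling genes, 3 were called higher and 1 lower. Of the 6 tested octamer and ETS partners, Sfpi1 alone was called. DN2b replicate 1, at 8.57 FPKM of Btk, is titled DN3, and replicate 2, at 21.9 FPKM, is titled DN2b.

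Pou2af1 was lower in DN2a than in DN2b without passing the threshold. DN2a replicates 1 to 4 had 1.12, 2.01, 0.385 and 0.1 FPKM and DN2b replicates 3.66 and 2.89 FPKM, a difference of -1.27 (SE 0.39, limma adjusted p = 0.0725). The lowest value came from the DN2a library harvested after 4.5 days of culture. Vpreb1 had 0.881, 1.05, 1.25 and 1.24 FPKM in DN2a and 1.40 and 0.885 FPKM in DN2b, a difference of -0.02 (95% interval -0.45 to 0.41). Cd79b had 14.7, 13.4, 14.8 and 11.6 FPKM in DN2a and 20.6 and 14.6 FPKM in DN2b, a difference of -0.33 (95% interval -0.80 to 0.14), and neither gene was called.

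Set beside normal DN2a cells, whose sort phenotype the protocol gives them, knockout cells had more Pou2af1 and less Cd79b. The same 14 knockout libraries enter both comparisons, so the values are given side by side. Of 13531 tested genes, 20.9% were called (11.8% higher, 9.08% lower), and 2 of the 4 genes were. Pou2af1 was higher by 1.75 (SE 0.53, limma adjusted p = 0.028), although the call was lost on leaving out any of 4 of the 18 libraries, DN2a replicates 1, 3 and 4 and DL1 knockout replicate 8. Cd79b was lower, with a difference of -1.03 (SE 0.16, limma adjusted p = 0.000544), and kept its call without any 1 library. DN2a libraries held 11.6 FPKM or more and knockouts 7.43 FPKM or less. How many of all genes separate these groups likewise was not counted, so the gap is not read as particular to Cd79b.

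Btk and Vpreb1 differed less from DN2a on the log2 scale. Vpreb1 averaged 1.10 FPKM in DN2a and 1.14 FPKM in normal DN2b, so nearness to DN2a is nearness to DN2b as well. Btk differed by -0.46 (95% interval -0.83 to -0.09, limma adjusted p = 0.0709) and Vpreb1 by -0.06 (95% interval -0.35 to 0.23), and neither was called. With genotype alone in the model Btk was called lower than in DN2a (-0.66, limma adjusted p = 0.0173). The DN2a cells had not received Cre virus and mostly come from other title dates, so these cannot be told apart from genotype. Culture day and title gate differ in part as well, and their share was not tested. Dated DN2a libraries are of days 4.5 and 8.5, whereas dated knockouts run to day 12, and 5 knockouts are titled DN2 and 1 DN2b. Beside the same cells, innate lymphoid and NK markers summed to 260 to 472 FPKM and myeloid markers to 50.04 to 67.4 FPKM in DN2a, against 551 to 1157 and 6.03 to 45.7 FPKM in knockout.

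**Figure D4:**
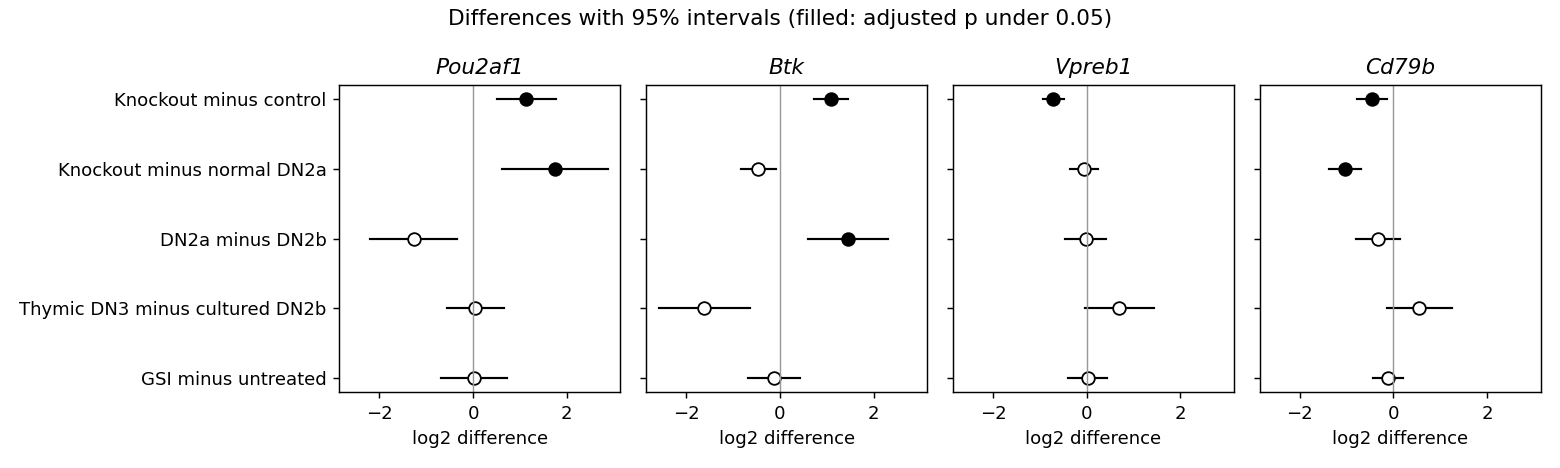
Fitted log2 differences of log2(FPKM + 1) (x axis) in 5 comparisons (y axis), with 95% intervals that are not adjusted for the number of genes; filled points passed an adjusted p under 0.05. All 4 genes pass in knockout against control, Pou2af1 and Cd79b against normal DN2a, and Btk alone in DN2a against DN2b.

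At the later DN3 stage Cd79b and Btk pointed in opposite directions without passing the threshold. The 3 ex vivo thymic libraries had 19.8, 24.5 and 36.0 FPKM of Cd79b and 2.44, 4.80 and 4.73 FPKM of Btk. Against cultured DN2b (2 libraries) the log2 differences were 0.56 for Cd79b (95% interval -0.14 to 1.25), -1.61 for Btk (-2.58 to -0.64, limma adjusted p = 0.177), 0.70 for Vpreb1 (-0.04 to 1.44) and 0.05 for Pou2af1 (-0.56 to 0.65). None of the 4 was among the 33 of 13495 genes called (0.245%). DN2b replicate 1 is itself titled DN3, so by title the stages compared are only partly apart. With the 8 fetal liver controls with Cre virus and standard IL-7 as the reference, Btk was called lower (-1.46, limma adjusted p = 0.0132) and Cd79b higher (1.41, limma adjusted p = 0.00108). Source, culture and Cre transgene differ with the stage and cannot be told apart from it.

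Notch inhibition for 12 hours moved none of the 4 genes detectably. In limma 0 of 13013 genes were called, 426 having an unadjusted p under 0.05. Treated DN2a cells had 1.12 and 1.95 FPKM of Pou2af1, 34.7 and 37.2 FPKM of Btk, 1.04 and 0.422 FPKM of Vpreb1, and 14.0 and 12.7 FPKM of Cd79b. Treated DN2b cells had 1.69 and 1.78 FPKM of Pou2af1, 9.91 and 15.7 FPKM of Btk, 2.22 and 1.65 FPKM of Vpreb1, and 17.3 and 12.3 FPKM of Cd79b. Without pairing, the log2 differences were 0.01 for Pou2af1 (95% interval -0.69 to 0.72), -0.13 for Btk (-0.69 to 0.42), 0.02 for Vpreb1 (-0.39 to 0.44) and -0.11 for Cd79b (-0.43 to 0.21). Cd79b was lower in 4 of 4 date pairs, with a largest difference of -0.243. With the 4 date pairs as a block, in which the 2 DN2a libraries without a partner form a block of their own, Pou2af1 turned to -0.33 (SE 0.16, limma adjusted p = 0.662) and was still not called. By pair it differed by -0.794 and -0.486 in DN2b and by -0.03 in 1 DN2a pair, and was equal, at 1.124 FPKM, in the DN2a replicate 1 pair, in which 670 genes (3.774%) above the lowest value share their value. Whether such shared values are the lowest value moved by the batch correction was not tested, so Pou2af1 may be undetected in that pair.

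Conditions with 1 knockout library carry no test. In the thymus, the LckCre knockout had 20.5 FPKM of Pou2af1 against 4.21 FPKM in the LckCre control and 9.54 FPKM of Btk against 2.44 FPKM. Both exceeded a log2 difference of 1, as did 4.73% of 13553 genes in that direction (3.56% fell below -1), while Vpreb1 (0.398 against 1.42 FPKM) and Cd79b (10.2 against 19.8 FPKM) were lower by less. The knockout library is titled DN2a and the control DN3, so stage and genotype cannot be told apart.

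Deletion in thymic DN3 cells, followed by culture, gave the library in which Vpreb1 was abundant. Vpreb1 stood at 10.6 FPKM against 1.55 and 1.48 FPKM in the cultured controls, a log2 difference of 2.21, opposite in sign to fetal liver cultures. Pou2af1 stood at 12.5 FPKM against 0.481 and 1.91 FPKM, a log2 difference of 2.70, and 10.3% of 14157 genes were higher by at least 1 on that scale. Btk, at 3.37 FPKM, lay between the controls at 3.38 and 0.976 FPKM, and Cd79b, at 13.7 FPKM, between 16.8 and 13.0 FPKM. Top3b was 57.7 FPKM in that library and 58.5 and 52.2 FPKM in the controls.

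In bone marrow cultures Pou2af1 was 7.64 FPKM in the library labelled knockout and 4.18 FPKM in the control, and Btk was 19.0 and 18.9 FPKM. Vpreb1 was 1.41 and 2.58 FPKM and Cd79b 5.10 and 5.53 FPKM. No gene of the 4 reached a log2 difference of 1, which 1.46% of 13437 genes did upward and 1.39% downward. Bcl11b did not differ between these libraries, as given above, so no direction is drawn from them.

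Return of Bcl11b to knockout cells by vector raised Bcl11b from 24.7 to 105 FPKM within 36 hours. Btk went from 19.3 FPKM with the empty vector to 14.3 FPKM with Bcl11b, where the control with empty vector had 6.50 FPKM. Vpreb1 went from 0.590 to 1.24 FPKM, with 0.934 FPKM in the control. Pou2af1 was 3.18 and 3.57 FPKM, with 2.40 FPKM in the control, and Cd79b 9.31 and 8.75 FPKM, with 7.88 FPKM in the control. None of the 4 differences reached 1 on the log2 scale (1.87% of 13250 genes were higher and 1.64% lower by that much), and with 1 library per arm a change cannot be told from the spread between cultures. Between the empty-vector libraries, knockout exceeded control by 1.44 for Btk, where 5.07% of 13443 genes were higher by at least 1 and 3.19% lower, and by 0.30 for Pou2af1. Cd79b was higher by 0.22, opposite in sign to the fetal liver comparison without a second vector, and Vpreb1 differed by -0.28.

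The genes whose profile over the 47 libraries was most like each of the 4 were found by Pearson's r of log2(FPKM + 1) among 8141 genes with a mean of at least 5 FPKM. The libraries share groups and dates, so r describes the profile and carries no test. Btk was tracked most closely by Rgs18, a regulator of G-protein signalling (r = 0.944), and closely by Nfam1, an immune receptor with an activation motif (0.917). Rgs18 averaged 12.2 FPKM in knockout, 7.20 FPKM in control, 16.3 FPKM in DN2a and 1.82 FPKM in ex vivo DN3. Pou2af1 was followed by Ikzf2, the Ikaros-family factor Helios (0.825), Mcart6, a mitochondrial carrier relative (0.820), and Timp2, a metalloproteinase inhibitor (0.803), which averaged 91.4 FPKM in knockout and 26.3 FPKM in control. Cd79b was followed by Lancl1 (0.811), Hsdl1 (0.764) and BC048355 (0.755), and Vpreb1 less closely by Pdrg1 (0.752), Lxn (0.711) and Vrk3 (0.709).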

How the data were processed

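RNA was selected on oligo-dT beads, fragmented and primed at random, with no step listed that marks strand, per the labels' protocols. The authors deposited 1 merged table of FPKM values, corrected for batch with ComBat according to its name. Which batches were entered is not given in the sources used here, and the correction could have raised or lowered any difference. The build was mm9, per the submitters' processing notes. Each column was tied to its sample by the library number in the sample description; 16 columns without such a match were left unused. The lowest value is 0.1 FPKM, held by 0.47% to 6.67% of genes per library, and some low values above it also repeat between libraries. Depth is unknown from these values, and no columns were identical (highest correlation 0.989).

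Values were analysed as log2(FPKM + 1) with limma 3.58.1 in R 4.3.3 (mean-variance trend, Benjamini-Hochberg adjustment over all tested genes). Genes entered a test if they had 1 FPKM or more in as many libraries as the smaller group has. The fitting code was tested on simulated data. The GSI fit had stage as a covariate, and interaction terms tested knockout by stroma and by IL-7. Alternatives tried were leaving out each library, a pseudocount of 0.1, quantile normalization, robust variances, no filter, subsets, other covariates and replicate blocks.

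The 4 genes and the gene lists were chosen with earlier results of these data known. The text names the 4 genes, list members called in the fetal liver knockout comparison, the defining B-cell markers, Tec, Pou2f1, Pou2f2, Spib and Syk, and for each of the 4 genes the 3 others with the highest correlation, less a few genes not reported here and left out of the lists; Top3b, Plcg2 and Sfpi1 in DN2a, Rgs18 and the values by culture day were added after values were seen. Title dates pair knockout with control in 9 pairs (3 of 1 culture over days, so 7 pairs of cultures) and GSI with untreated in 4; deviations from group means correlated between -0.052 and 0.517 in the first and between 0.609 and 0.649 in the second.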

Additional observations from a re-analysis of the deposited data

How the results depend on the processing

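In knockout against control, Btk and Vpreb1 stayed called, with their signs, with no filter, a pseudocount of 0.1, robust variances, quantile normalization, both replicate blocks and each of 25 left-out libraries; smaller sets of libraries below cost every gene its call somewhere, with the sign of the full comparison kept, and the cause was not tested beyond the fewer libraries fitted. Log2 differences follow. A pseudocount of 0.1 gave Pou2af1 1.29 and Cd79b -0.51, and no filter gave Cd79b -0.46, none called. As a replicate block, 9 date pairs called 1282 genes (2142 without it) and lost Cd79b (-0.49), and 7 culture pairs called 858 and lost Cd79b (-0.48); the other 3 genes kept their calls under both blocks. Adding title year lost Cd79b (-0.42). Standard IL-7 alone called 1396 genes and lost Pou2af1 (0.97). Reduced IL-7 alone called 430 and lost Btk (1.14), Vpreb1 (-1.09) and Cd79b (-0.027). DL1 alone called 988 and lost Pou2af1 (1.06) and Cd79b (-0.40), and DL4 alone called 451 and lost Btk (1.03) and Cd79b (-0.47). The earliest year called 475 and lost Btk (1.06), Vpreb1 (-1.08) and Cd79b (-0.0005). The middle year called 270 and lost Pou2af1 (1.25), Btk (1.03), Vpreb1 (-0.67) and Cd79b (-1.03), and the latest called 778 and lost Pou2af1 (0.87) and Cd79b (-0.36). The 4 same-gate pairs, chosen after seeing the data and fitted without pairing, called 252 and lost Pou2af1 (0.64), Btk (1.13), Vpreb1 (-0.70) and Cd79b (-0.33). With 1 library left out, Cd79b ran from -0.57 to -0.37.

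In DN2a against DN2b (1799 genes called), a pseudocount of 0.1 called 1065 genes and lost Btk (1.52), no filter lost Btk (1.45), and the replicate block of replicates 1 and 2 called 624 and lost Btk (1.25). Quantile normalization turned the uncalled Vpreb1 to 0.28. With 1 library left out the count ran from 60 to 1406, moving by over 1.5 times without either DN2b library, DN2a replicate 2 or DN2a replicate 4; Btk ran from 0.82 to 2.08, Vpreb1 from -0.19 to 0.15, and Pou2af1 from -1.53 to -1.04, passing the threshold without DN2a replicate 2. Against normal DN2a, DL1 with standard IL-7 lost Pou2af1 (1.66), and genotype alone called Btk (-0.66). With 1 library left out, 1783 to 3025 genes were called (2822 in full), fewest without DN2a replicate 2 or 4; Pou2af1 ran from 1.52 to 2.12 and Btk from -0.62 to -0.35, Btk being called without DN2a replicate 1 or DL4 knockout replicate 2.

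Under GSI the uncalled differences changed sign easily: with the 4 date pairs as a replicate block Pou2af1 was -0.33, a pseudocount of 0.1 gave Vpreb1 -0.048, and leaving out the pair titled DN3 gave Vpreb1 -0.085. With 1 library left out Pou2af1 ran from -0.24 to 0.17, Btk from -0.34 to 0.077 and Vpreb1 from -0.11 to 0.24. In thymic DN3 against DN2b (33 called), robust variances called 83 genes and the fetal liver reference 2844, with Btk (-1.46) and Cd79b (1.41) among them. With 1 library left out the count ran from 6 to 323, moving by over 1.5 times without DN2b replicate 1 or any thymic library, Btk ran from -2.24 to -0.98, called without DN2b replicate 1, and Pou2af1 from -0.085 to 0.18. For knockout by IL-7 (100 called), quantile normalization called 59 and made Btk -0.051, and title year called 217; with 1 library left out the count ran from 40 to 202, Btk from -0.014 to 0.32 and Cd79b from -0.15 to 0.74. For knockout by stroma the count ran from 0 to 4, Pou2af1 from -0.012 to 0.54, Btk from -0.41 to 0.26 and Cd79b from -0.66 to 0.14. Depth is unknown, and values near 0.1 FPKM, as in part for Pou2af1 and Vpreb1, limit what their differences can show.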
